A study of Mus musculus with 10 samples.

Results

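Laminins are the cross-shaped proteins of basement membranes, the thin sheets of matrix that surround nerve bundles, blood vessels and muscle fibres. Each laminin is built inside the cell from an alpha, a beta and a gamma chain and polymerizes after secretion, and nidogens are rod-shaped linkers that tie laminin, mainly through its gamma chain, to collagen IV. In developing peripheral nerve, laminin is the surface on which sensory axons grow and the matrix that Schwann cells need for sorting and myelinating axons, while fibroblasts and vessels supply part of the basement membrane. The genes examined were the laminin chain genes Lama1, Lama2, Lama4, Lama5, Lamb1, Lamb2, Lamc1 and Lamc3 and the nidogen genes Nid1 and Nid2. They were chosen by name, with earlier results of these data known. All 10 were on the array, each with 1 probe set assigned to that gene alone, out of 19938 genes measured.

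Dorsal root ganglia (DRGs), which hold the cell bodies of sensory neurons, were dissected from mouse embryos at E13.5, the stage counted in days of embryonic development. In Lkb1 KO embryos, floxed Lkb1 (gene symbol Stk11, encoding liver kinase B1) was deleted by a Wnt1-Cre transgene. Wnt1-Cre acts in the neural crest, from which both the neurons and the glia of the ganglion descend, and also in the dorsal neural tube and midbrain. The controls were WT littermates, and whether they carried a floxed allele or the transgene is not stated in the sources used here. Each group had 5 samples, and a sample was the ganglia of 2 embryos pooled and run on 1 array, so n counts pools. Values are log2 expression after RMA (a background correction, normalization and probe summary for Affymetrix arrays), and the level of one probe set cannot be set against that of another. Whole ganglia were measured, so more cells of a type and more RNA per cell cannot be told apart.

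Stk11 itself fell from 8.70 ± 0.22 (SD, n = 5) to 7.78 ± 0.11 (SD, n = 5) with the deletion, by 0.92 on the log2 scale (limma, adjusted p = 1.15e-04). The neuronal genes Isl1, Tubb3 and Prph were at 11.51, 10.92 and 11.94 in Lkb1 KO, and the glial gene Sox10 at 9.34. Lkb1 KO replicates 2 and 5 stood apart in Y-linked genes, with a mean of 5.02 and 5.21 over 3 such genes against 8.80 to 9.81 in the other samples. Xist, which is expressed from the inactive X chromosome, was at 4.48 to 5.46 in WT replicates 1, 3 and 5 and at 4.89 in Lkb1 KO replicate 3, against 11.70 to 12.37 in the other 6 pools. The sex of the embryos was thus uneven between the groups and cannot be fully told apart from genotype. Leaving out Lkb1 KO replicates 2 and 5 does not make the groups even in Xist. Calls of laminin, nidogen, basement membrane and receptor genes that change without Lkb1 KO replicates 2 and 5, or with the Y-linked mean as a covariate, are given both ways.

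With limma and an adjustment over every gene measured, 5 of the 10 laminin and nidogen genes passed an adjusted p of 0.05 as higher in Lkb1 KO and 0 as lower, also at an unadjusted p under 0.05 (Lama5, the one gene below 0, had an unadjusted p of 0.560). Over all genes, 2.49% were called higher and 1.38% lower. The 5 were Lama1, Lamc1, Lamc3, Nid1 and Nid2, which means 1 alpha chain, both gamma chains examined and both nidogens, and no beta chain. Their log2 fold changes ran from 0.19 to 0.50. The median over all 10 was 0.20, against -0.0017 over all genes. With the Y-linked covariate 4 of the 10 were called (1.43% of all genes), and 4 without Lkb1 KO replicates 2 and 5 (1.44%). In both cases the call that was lost was that of Lamc1. The log2 fold change was above 0 for 9 of the 10 (49.1% of all genes). Among the marker lists described below it was above 0 for 10 of 10 fibroblast and mesenchyme markers and 8 of 8 endothelial markers. It was so for 7 of 8 pericyte and smooth muscle markers and 6 of 7 meningeal markers. For skeletal muscle and for proliferation markers the count was 7 of 7 each. It was 3 of 5 for macrophage, 4 of 7 for Schwann and satellite glia and 0 of 11 for sensory neuron markers. In 4 of the 10 laminin and nidogen genes all Lkb1 KO pools lay above all WT pools (3.09% of all genes), and in 0 of the 10 all lay below (2.24%). The genes were chosen with earlier results known, so these shares describe them and are no independent test.

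**Figure D1:**
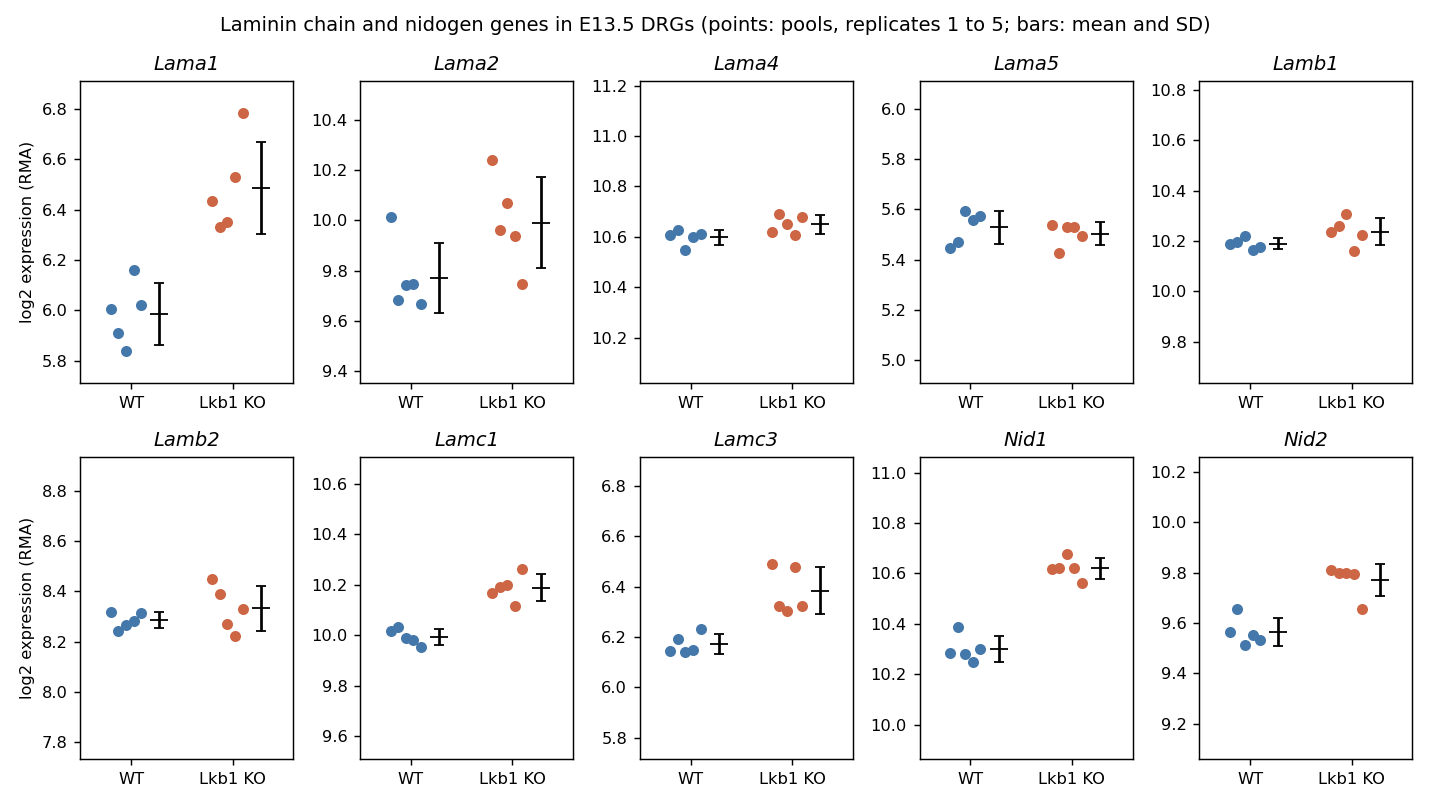
Log2 RMA expression (y axis) of each gene in each WT and Lkb1 KO pool (points, replicates 1 to 5 from left to right), with the mean and SD of the 5 pools beside them; every panel spans the same range. For Lama1, Lamc1, Lamc3 and Nid1 the Lkb1 KO pools all lie above the WT pools, while for Lama5 and Lamb2 the groups overlap.

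Promoter sequences from RefSeq (GRCm38.p6) were at hand for 5 of the 10 genes (Lama2, Lama5, Lamb1, Lamb2 and Nid1), each of 300 bases from 250 before to 50 after the start of the gene. Nid1, the called gene among them, and Lamb1, which did not pass the test, are shown, since their products meet in the same laminin and nidogen network. Capitals mark the GC box GGGCGG, the CCAAT box and the TATA-like motif TATAA, each searched on both strands.
Nid1 (chr13:13437352-13437651, plus strand): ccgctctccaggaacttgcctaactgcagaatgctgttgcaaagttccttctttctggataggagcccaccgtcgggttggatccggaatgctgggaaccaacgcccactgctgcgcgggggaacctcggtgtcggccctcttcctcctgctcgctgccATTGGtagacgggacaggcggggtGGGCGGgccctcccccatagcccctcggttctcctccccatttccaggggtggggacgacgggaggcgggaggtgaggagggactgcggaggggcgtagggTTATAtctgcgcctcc
Lamb1 (chr12:31265043-31265342, plus strand): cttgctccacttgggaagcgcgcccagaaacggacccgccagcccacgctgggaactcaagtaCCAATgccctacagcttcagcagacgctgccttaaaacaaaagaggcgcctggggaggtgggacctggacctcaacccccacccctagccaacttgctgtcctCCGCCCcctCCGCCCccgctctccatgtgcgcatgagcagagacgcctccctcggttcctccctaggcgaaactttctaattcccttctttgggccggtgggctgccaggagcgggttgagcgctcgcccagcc
The Nid1 window held 1 GC box, 1 CCAAT box and 1 TATAA, and the Lamb1 window held 2 GC boxes and 1 CCAAT box with no TATAA. The TATAA of Nid1 was its reverse complement TTATA and lay within the 50 bases after the start, not before it. Of all 32851 promoter windows, 35.7% held the GC box, 37.4% the CCAAT box and 24.9% TATAA. The GC content was 64.7% for Nid1 and 63.7% for Lamb1, against a median of 52.7% over all windows. Among the other windows, that of Lama5 held 4 GC boxes and that of Lama2 held 1.

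The nidogens rose together. Nid1, whose protein binds the laminin gamma 1 chain and collagen IV, was at 10.29, 10.39, 10.28, 10.25 and 10.30 in WT replicates 1 to 5. In Lkb1 KO replicates 1 to 5 it was at 10.62, 10.62, 10.68, 10.62 and 10.56. The lowest Lkb1 KO pool thus lay above the highest WT pool. The log2 fold change was 0.32 (95% confidence interval 0.24 to 0.40, SE 0.04, limma adjusted p = 4.05e-04), which is 24.9% more signal in Lkb1 KO. An exact two-sided permutation test over the 252 assignments of the pools gave p = 0.00794, the smallest that 5 against 5 allows. The Nid1 call held in every fit that left out 1 sample, with an adjusted p of at most 0.00206.

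Nid2, the second nidogen gene, was at 9.56, 9.66, 9.51, 9.55 and 9.53 in WT and at 9.81, 9.80, 9.80, 9.80 and 9.65 in Lkb1 KO. Replicate 5 of the Lkb1 KO group lay just under WT replicate 2, and the other 4 Lkb1 KO pools lay above every WT pool. The log2 fold change was 0.21 (SE 0.04, limma adjusted p = 0.0164). Without WT replicate 3 the log2 fold change was 0.19 and the limma adjusted p became 0.0504. The difference between Nid1 and Nid2 within each array was larger in Lkb1 KO by 0.11 on the log2 scale, and in all 5 Lkb1 KO pools it exceeded every WT pool (exact two-sided permutation p = 0.00794, or 0.0119 after Benjamini-Hochberg adjustment over the 6 pairs of genes compared in this way). This pair was chosen after the single genes had been seen, so its p-value is a description.

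Of the gamma chains, Lamc1 encodes the one that most laminins share and that carries the nidogen-binding site. It was at 10.02, 10.03, 9.99, 9.98 and 9.95 in WT and at 10.17, 10.19, 10.20, 10.12 and 10.26 in Lkb1 KO, so that the groups did not overlap. Its log2 fold change was 0.19 (SE 0.04, limma adjusted p = 0.0107). With the Y-linked covariate it was 0.17 (adjusted p = 0.0810), and without Lkb1 KO replicates 2 and 5 it was also 0.17 (adjusted p = 0.0710).

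Lamc3, the gene of a gamma chain found in fewer tissues, was at 6.15, 6.19, 6.14, 6.15 and 6.23 in WT. In Lkb1 KO replicates 1 and 4 it was at 6.49 and 6.48, and in replicates 2, 3 and 5 at 6.32, 6.30 and 6.32. All Lkb1 KO pools lay above the WT pools, in a lower and a higher set. Every Lamc3 value lay below the lowest array median, 6.50, and no detection call was used. On the log2 scale Lamc3 rose by 0.21 (SE 0.05, limma adjusted p = 0.0244). Leaving out 1 sample lost the call in 5 of 10 cases, namely without WT replicates 1, 2, 3 or 4 or Lkb1 KO replicate 4, with an adjusted p between 0.0519 and 0.0681.

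Neither beta chain gene passed the test. Lamb1, the beta chain of most embryonic laminins, was at 10.19 ± 0.02 in WT and 10.24 ± 0.05 in Lkb1 KO (SD, n = 5 each), where 4 pools lay above every WT pool and replicate 4, at 10.16, lay level with the lowest. The log2 fold change was 0.05 with a 95% confidence interval from -0.03 to 0.13 (limma, adjusted p = 0.608). Lamb2, the beta chain known from synaptic and mature basement membranes, was at 8.28 ± 0.03 in WT and 8.33 ± 0.09 in Lkb1 KO (SD, n = 5 each). Its log2 fold change was 0.05, with an interval from -0.05 to 0.14 (limma, adjusted p = 0.713).

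The unequal change of Lamc1 and Lamb1, whose chains pair with each other in the cell, was tested within arrays. The value of Lamc1 minus that of Lamb1 was -0.20 ± 0.03 in WT and -0.05 ± 0.06 in Lkb1 KO (SD, n = 5 each). All 5 Lkb1 KO pools lay above all WT pools in this difference, which moved by 0.15 (exact two-sided permutation p = 0.00794, adjusted over 6 pairs 0.0119). Nid1 also moved more than Lamb1, by 0.27 (p = 0.00794, adjusted 0.0119, exact permutation), and more than Lamc1, by 0.13 (p = 0.0238, adjusted 0.0286, exact permutation). These pairs were chosen after the single genes had been seen, so their p-values are a description.

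**Figure D2:**
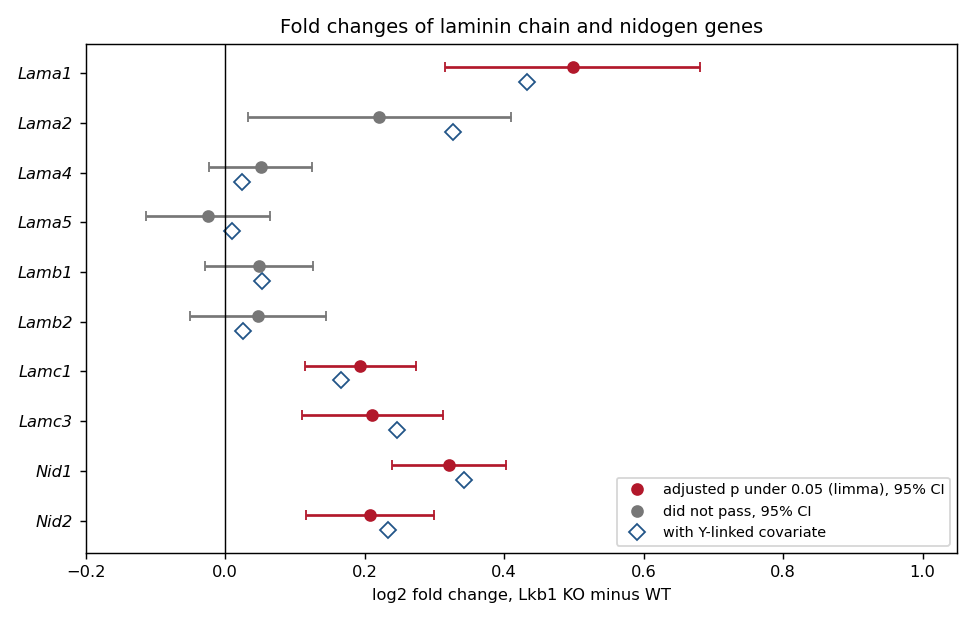
Change of each gene on the log2 scale (x axis, difference of the Lkb1 KO and WT means) with its 95% confidence interval, in red for genes called by limma at 0.05 and in grey for the rest; open diamonds give the value with the Y-linked covariate. Lama1 has the largest value at 0.50, and the intervals of Lama4, Lama5, Lamb1 and Lamb2 span 0.

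The alpha chains, which carry most of the sites that bind cell surface receptors, had 1 call among 4 genes. Lama1, the alpha chain of the first laminins of the embryo and of the pial surface, was at 6.01, 5.91, 5.84, 6.16 and 6.02 in WT. It was at 6.44, 6.33, 6.35, 6.53 and 6.78 in Lkb1 KO, where every pool exceeded the highest WT pool and replicate 5 was the highest. The log2 fold change was 0.50 (95% confidence interval 0.32 to 0.68, SE 0.08, limma adjusted p = 0.00522), which is 41.3% more signal. This was the largest fold change of the 10 genes. It came from a dim probe set, with means of 5.99 in WT and 6.49 in Lkb1 KO. Both lay below the lowest array median, 6.50, and no detection call was used. When each gene was given its own variance in an analysis of variance, Lama1 had an adjusted p of 0.0511, and 3 of the 10 genes were called (1.3% of all genes were called higher). With the Y-linked covariate the Lama1 log2 fold change was 0.43 (limma, adjusted p = 0.0459).

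Lama2 encodes the alpha chain of the main Schwann cell and muscle laminin. Its WT pools were at 10.01, 9.68, 9.74, 9.75 and 9.67 and its Lkb1 KO pools at 10.24, 9.96, 10.07, 9.94 and 9.75. The groups overlapped, with replicate 1 the highest and replicate 5 the lowest in each. Its log2 fold change was 0.22 (SE 0.09, limma adjusted p = 0.232). Between samples of the same replicate number, Lkb1 KO was higher in 5 of 5, by 0.23, 0.28, 0.33, 0.19 and 0.08 for replicates 1 to 5. In a fit with a replicate block the standard error fell to 0.04 and the adjusted p was 0.0156, so that 6 of the 10 genes were called (3.59% of all genes were called higher and 2.83% lower in that fit, with 0 of the 10 lower).

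Lama4, the alpha chain of vascular and perineurial basement membranes, was at 10.60 ± 0.03 in WT and 10.65 ± 0.04 in Lkb1 KO (SD, n = 5 each), a log2 fold change of 0.05 with an interval from -0.02 to 0.12 (limma, adjusted p = 0.548). Lama1 minus Lama4 rose by 0.45 (exact two-sided permutation p = 0.00794, adjusted over 6 pairs 0.0119), whereas Lama2 minus Lama4 differed by 0.17 (p = 0.143, adjusted 0.143, exact permutation). Both pairs were chosen after the single genes had been seen, so their p-values are a description. Lama5, the alpha chain of most epithelial and late vascular basement membranes, was at 5.53 ± 0.07 in WT and 5.50 ± 0.05 in Lkb1 KO (SD, n = 5 each). Its log2 fold change was -0.02 (95% confidence interval -0.11 to 0.06, adjusted p = 0.853 from limma), and its sign turned to 0.01 with the Y-linked covariate. Lama5 was the lone gene of the 10 with a value below 0.

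Of the remaining laminin chain genes, Lama3 and Lamb3, known from the laminin of skin epithelium, were measured. Lama3 was at 6.82 ± 0.07 in WT and 6.64 ± 0.16 in Lkb1 KO (SD, n = 5 each) (limma, adjusted p = 0.223). Lamb3 was at 4.86 ± 0.04 (SD, n = 5) and 4.90 ± 0.04 (SD, n = 5), in that order (limma, adjusted p = 0.716).

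The variation of the 10 genes from pool to pool was compared within groups. Over the deviations of the 10 arrays from their group means, Pearson's r for the 45 pairs of genes ran from -0.70 to 0.79 and was above 0 for 24 of them. The highest value was that of Nid1 with Nid2 (r = 0.79, permutation p = 0.00816, adjusted 0.367; Spearman's rho = 0.76, permutation p = 0.0153, adjusted 0.344). It was 0.72 without the 2 arrays farthest from the median of Nid1. No pair passed the adjustment over the 45 pairs. The permutations treated the 10 arrays as independent, although same-numbered WT and Lkb1 KO arrays deviated together, so their p-values are a description. The smallest adjusted p was that of Spearman's rho for Lama1 with Lamb1 (rho = -0.89, permutation p = 0.00137, adjusted 0.0616; r = -0.59, permutation p = 0.0766, adjusted 0.431). The lowest r was that of Lama4 with Lama5 (r = -0.70, permutation p = 0.0250, adjusted 0.389; rho = -0.66, permutation p = 0.0435, adjusted 0.489). Among 9968 genes at or above the median level, the ones whose deviations were most like those of Lamc1 were Ciz1 (r = 0.94), Ppp1r10 (0.94), Cct3 (0.94) and Tsfm (0.94), over 10 arrays. These values are the top of many and are a description.

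Of 18 other basement membrane genes, 2 were higher, none was lower and 16 did not pass the test, with a median log2 fold change of 0.02. Over all genes 2.49% were called higher and 1.38% lower. Col18a1, whose collagen XVIII is cleaved to endostatin, was at 7.52 ± 0.05 in WT and 8.10 ± 0.13 in Lkb1 KO (SD, n = 5 each), a log2 fold change of 0.57 (limma, adjusted p = 1.10e-04). Sparc, a collagen-binding matrix protein gene, rose by 0.25 (limma, adjusted p = 0.00183). The genes of the main collagen IV chains, Col4a1 and Col4a2, both had a log2 fold change of 0.02 (limma, adjusted p = 0.817 and 0.812). Hspg2, the gene of perlecan, a heparan sulphate proteoglycan that binds laminin and nidogen, was at 0.22 (limma, adjusted p = 0.0573). Hspg2 passed with array medians aligned (0.0393), cyclic loess (0.0212), an intensity trend (0.0421), array weights (0.0162), the dimmest genes left out (0.0493) or the replicate block (0.00827), and had 0.189 with the Y-linked covariate. The block also called Col4a5 (0.0458), Fbln1 (0.0293) and Smoc1 (0.0278), which gave 6 of 18 (3.59% of all genes were called higher in that fit). For Agrn, the gene of agrin, a laminin-binding proteoglycan, the value was -0.18 (limma, adjusted p = 0.110). Its adjusted p was 0.0238 with the Y-linked covariate and 0.0374 without Lkb1 KO replicates 2 and 5.

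Of 9 genes of laminin-binding receptors, 3 were higher and 1 was lower, where 2.49% and 1.38% of all genes were. Itga6, the integrin subunit that pairs with the beta 1 or beta 4 subunit to bind laminin, was at 10.09 ± 0.04 in WT and 10.28 ± 0.06 in Lkb1 KO (SD, n = 5 each), a log2 fold change of 0.19 (limma, adjusted p = 0.0135). Its partner gene Itgb4 rose by 0.15 (limma, adjusted p = 0.0410, or 0.0594 under the replicate block). Itga1, of the collagen- and laminin-binding integrin alpha 1, rose by 0.40 (limma, adjusted p = 0.0430), with Lkb1 KO replicate 1 at 7.71 and the other Lkb1 KO pools between 7.21 and 7.26. Itga2, its relative, fell by 0.35 (limma, adjusted p = 0.0234), from 9.20 ± 0.14 (SD, n = 5) to 8.85 ± 0.14 (SD, n = 5). None of these 4 calls held with the Y-linked covariate (adjusted p from 0.0938 to 0.154) or without Lkb1 KO replicates 2 and 5 (0.0943 to 0.157). With the covariate the log2 fold changes were 0.44 for Itga1, 0.15 for Itgb4, 0.17 for Itga6 and -0.25 for Itga2. Leaving out 1 sample lost Itgb4 in 8 of 10 cases, Itga1 in 8 and Itga2 in 6, and Itga6 in 0. For Dag1, the gene of dystroglycan, the value was 0.12 (limma, adjusted p = 0.114), and Itgb1, the common beta subunit, of -0.0047 (limma, adjusted p = 0.979).

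None of 8 measured genes for the sugar chain by which dystroglycan binds laminin passed the test. Over all genes 2.49% were called higher and 1.38% lower, from which a count of 0 of 8 cannot be told apart. The log2 fold changes of the 8 had a median of 0.0013. The smallest p was that of B4gat1, at 0.168 unadjusted and 0.564 adjusted from limma, so that 0 of the 8 were under 0.05 without adjustment. The share of all genes under 0.05 without adjustment is not given here. The values of Pomt2, Pomgnt1 and Pomt1 were 0.05, -0.04 and -0.03. Of the 12 genes on this list, 4 were not analysed here.

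**Figure D3:**
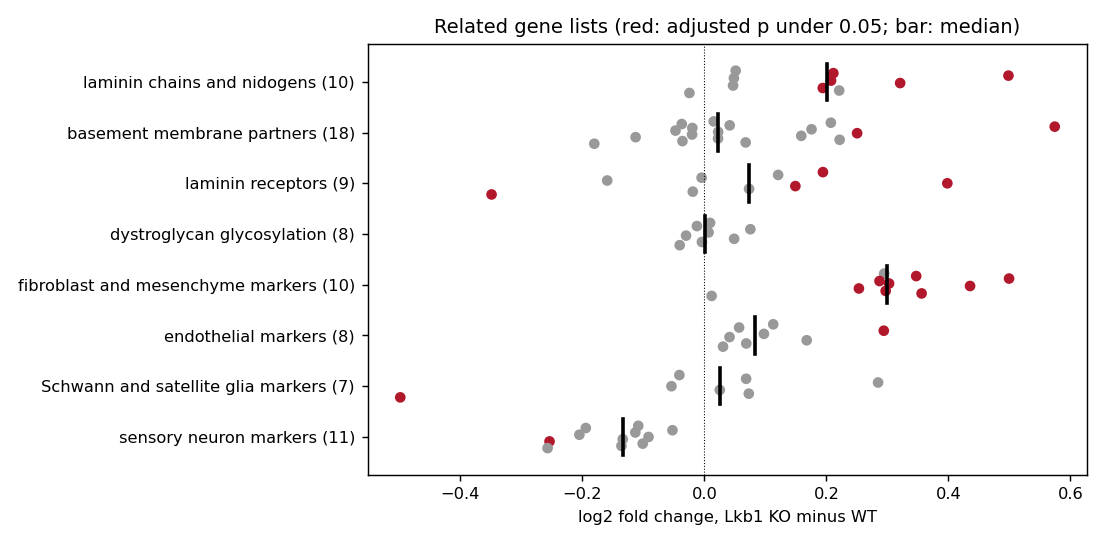
Change on the log2 scale (x axis, difference of the Lkb1 KO and WT means) for the genes of 8 lists (y axis, number measured in parentheses); called genes are red, other genes grey, and a black bar marks the median of a list. The laminin chains and nidogens have a median of 0.20, between that of the fibroblast and mesenchyme markers at 0.30 and that of the endothelial markers at 0.08. Of the marker lists not drawn, the pericyte and smooth muscle markers had a median of 0.21 and the proliferation markers 0.30. The meningeal markers had 0.14, the skeletal muscle markers 0.12 and the macrophage markers 0.05.

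Some markers of other cell types also differed between the groups, most clearly those of fibroblasts and mesenchyme. For the counts that follow, 2.49% of all genes were called higher and 1.38% lower. Among 10 fibroblast and mesenchyme markers 8 rose and 0 fell, with log2 fold changes of 0.50 for Lum and 0.36 for Postn, both matrix genes. The mean level of this list ran from 8.44 to 8.54 in WT and from 8.74 to 8.83 in Lkb1 KO, with Tcf21 as its dimmest marker at 4.59 in WT and 4.61 in Lkb1 KO. With the Y-linked covariate 7 of these markers were called higher (1.43% of all genes), and 7 without Lkb1 KO replicates 2 and 5 (1.44%). Of 8 pericyte and smooth muscle markers 1 was higher, with a mean level of 7.14 to 7.23 in WT and 7.26 to 7.51 in Lkb1 KO. Of 8 endothelial markers 1 was higher, Cldn5, with a mean level of 8.55 to 8.65 in WT and 8.60 to 8.85 in Lkb1 KO. Of 7 meningeal markers 1 was higher, with a mean level of 8.35 to 8.51 and 8.44 to 8.65. Skeletal muscle markers had a mean level of 5.36 to 5.54 in WT and 5.42 to 6.50 in Lkb1 KO, and macrophage markers of 6.004 to 6.12 and 6.02 to 6.16, with no call in either list. Of 7 proliferation markers 4 were higher, with a mean level of 8.93 to 9.14 in WT and 9.26 to 9.50 in Lkb1 KO. With the Y-linked covariate, and likewise without Lkb1 KO replicates 2 and 5, 2 proliferation markers, 1 endothelial marker and 0 pericyte or meningeal markers were called higher. With the replicate block the counts called higher were 9 fibroblast, 3 pericyte, 2 endothelial, 3 meningeal and 6 proliferation markers (3.59% of all genes).

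In the Schwann and satellite glia list and the sensory neuron list no marker was called higher in the unpaired test. With the replicate block Egr2, a transcription factor of Schwann cells, was called higher (log2 fold change 0.28, limma adjusted p = 0.0133, or 0.0812 unpaired). For Egr2 all Lkb1 KO pools lay above the WT pools. Over all genes 1.38% were called lower in the unpaired test. Of 7 Schwann and satellite glia markers 0 were higher and 1, the cadherin gene Cdh19, was lower at -0.50. Their mean level ran from 8.70 to 8.78 in WT and from 8.70 to 8.77 in Lkb1 KO. Of 11 sensory neuron markers 1 was lower, Isl1 at -0.25, and the mean level ran from 10.80 to 10.92 in WT and from 10.66 to 10.76 in Lkb1 KO. A second was called lower with the Y-linked covariate (Pou4f1, adjusted p = 0.0492) or with the replicate block (Avil, adjusted p = 0.0163). The mean of the 10 laminin and nidogen genes ran from 8.61 to 8.66 in WT and from 8.80 to 8.86 in Lkb1 KO. The part of these cell types in the change of the laminin and nidogen genes was not tested.

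**Figure D4:**
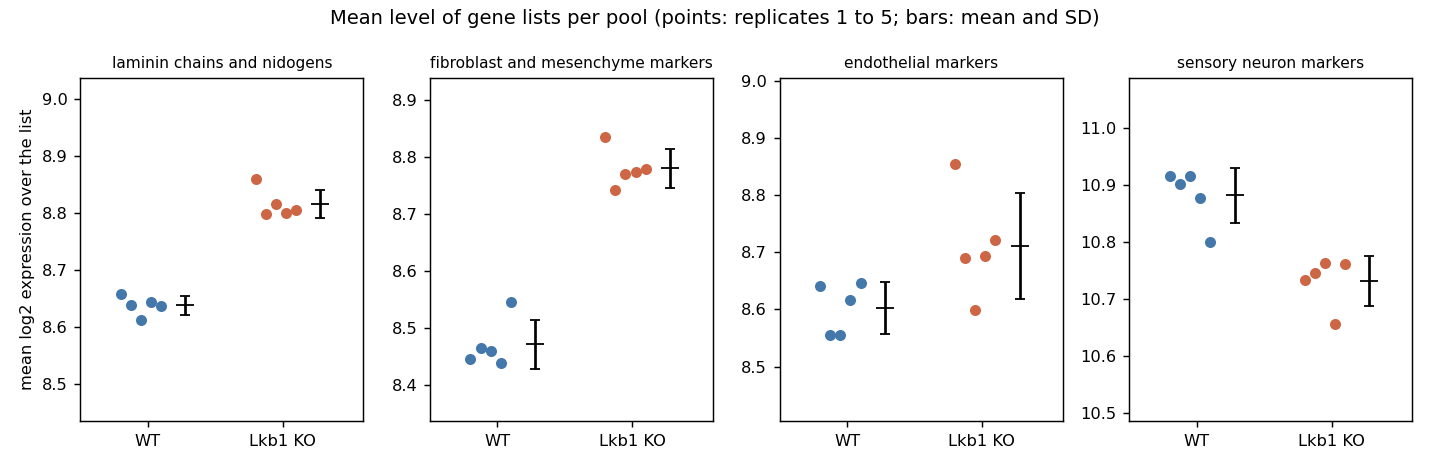
Mean log2 expression over a list (y axis) in each WT and Lkb1 KO pool (points, replicates 1 to 5 from left to right), with the mean and SD of the 5 pools; every panel spans the same range. The laminin chains and nidogens and the fibroblast and mesenchyme markers are higher in every Lkb1 KO pool, the endothelial markers overlap, and the sensory neuron markers are lower in every Lkb1 KO pool.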

How the data were processed

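The authors deposited log2 expression values of 35556 probe sets from 10 one-colour arrays; RMA and Partek 6.6 are listed in the submitters' notes and MATLAB in the methods, and the genome build was not given in sources used here. Scanner files were not used here. RMA normalizes all arrays to one distribution, so that a shift shared by most genes would not be seen. No detection call was used, so that changes of dim genes such as Lama1, Lamc3, Lama5 or Lamb3 can be compressed. Probe sets with exactly 1 annotated gene (21789) were named through RefSeq gene identifiers, and the brightest over the 10 arrays was kept for each gene, leaving 19938 genes.

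The groups were tested in R 4.3.3 by the lmFit and eBayes functions of limma 3.58.1, with two-sided p-values adjusted over all genes (Benjamini-Hochberg). The unpaired fit, but not the other steps, was also run on simulated data. Same-numbered WT and Lkb1 KO samples deviated together (correlations of 0.21 to 0.48 across genes), so a fit with the replicate number as a block was run as an alternative to the unpaired test, and its values are given where they change a call. The pairing rests on the values alone, as no label explains the numbers. The labels call the samples biological replicates, and no 2 arrays of a group were alike (SD of their log2 differences from 0.177 to 0.276). Array medians differed by at most 0.0689.

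The genes and lists were chosen with earlier results of these data known. Named genes were all 10 genes, Stk11, the remaining laminin chains, and from the lists of basement membrane, receptor and dystroglycan genes those called and the 4 smallest p-values; Agrn, Col4a1, Col4a2, Dag1, Itgb1, Fbln1, Smoc1 and the marker genes named were added after their values were seen. Of 4 Y-linked genes listed for the covariate 3 were measured. Of the laminin chains listed, 1 was not analysed here. Alternatives were array medians aligned, cyclic loess, an analysis of variance per gene, a robust prior with a trend on intensity, weights per array, the dimmest 30% left out, the mean of probe sets, the replicate block, the Y-linked covariate, Lkb1 KO replicates 2 and 5 left out, and each sample left out in turn. Python 3.11.15 was used for the other steps.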

Additional observations from a re-analysis of the deposited data

Results flagged for a closer look

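A sample far from the other 4 of its group, by Dixon's test at 95%, was seen in 7 of 74 groups of values examined, and chance gives about 1 in 20. Among the laminin and nidogen genes these were Lama2 in WT replicate 1, at 10.01 against 9.67 to 9.75 in the other WT pools, and Nid2 in Lkb1 KO replicate 5, at 9.65 (9.655 before rounding) against 9.80 to 9.81 in the other Lkb1 KO pools. Itga1 was at 7.711 in Lkb1 KO replicate 1 against 7.21 to 7.26, and Pomt1 at 8.174 in Lkb1 KO replicate 4 against 8.39 to 8.42. In the marker lists, the sensory neuron mean was 10.66 in Lkb1 KO replicate 4 against 10.73 to 10.76, the fibroblast and mesenchyme mean 8.545 in WT replicate 5 against 8.44 to 8.47, and the skeletal muscle mean 6.50 in Lkb1 KO replicate 3 against 5.42 to 5.60.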

How the results depend on the processing

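Among the values of the 10 genes under 20 alternatives, 187 kept their direction and their side of the threshold, 10 lost a call (1 for Lama1, 2 for Lamc1, 6 for Lamc3 and 1 for Nid2), 1 gained one (Lama2 with the replicate block) and 2 turned sign. The 2 were Lama5 with the Y-linked covariate (0.0093) and without Lkb1 KO replicates 2 and 5 (0.0039), and Pomt1 ran from -0.050 to 0.017 with 1 sample left out, turning without Lkb1 KO replicate 4. Only the 5 genes called in all samples could lose a call. Each of the 10 genes has 1 probe set, so the mean of probe sets could not change its log2 fold change. The count of laminin and nidogen genes called higher, 5 in all samples, was 3 with the analysis of variance per gene and 3 to 5 with 1 sample left out, and 3 without WT replicate 3, where Lamc3 and Nid2 lost their calls. Genes called in all, 771, were 387 with the analysis of variance, 1280 with the replicate block, 475 with the Y-linked covariate, 459 without Lkb1 KO replicates 2 and 5, and 485 to 834 with 1 sample left out. Basement membrane genes called higher, 2, were 3 with array medians aligned, cyclic loess, an intensity trend or the dimmest genes left out, 4 with array weights, 6 with the replicate block and 2 to 3 with 1 sample left out. Receptor genes called higher, 3, were 0 with the Y-linked covariate, 0 without Lkb1 KO replicates 2 and 5 and 1 to 3 with 1 sample left out. Receptor genes called lower, 1, were 0 with the analysis of variance, the Y-linked covariate or without Lkb1 KO replicates 2 and 5, and 0 to 1 with 1 sample left out. The replicate block changed no call of the other laminin and nidogen genes. The causes were not tested. With 5 arrays a group, small changes such as those of Lamb1 and Lama4 have intervals that span 0.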
